A study of Mus musculus with 4 samples.

Results

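The genes described are 10 genes of melanin synthesis and of the melanosome, the organelle in which pigment cells make and store melanin. They were Dct, Tyr, Tyrp1, Pmel, Mlana, Slc45a2, Oca2, Slc24a5, Gpnmb and Gpr143, chosen by symbol from the gene lists, which held 27998 genes for cells and 48816 genes for nuclei. All 10 were listed in all 4 libraries. The libraries were 3 captures of whole cells (scRNA-Seq) and 1 capture of nuclei (snRNA-Seq) from the stria vascularis (SV) of the cochlea of untreated CBA/J mice, a pigmented inbred strain, at postnatal day 30. Each capture was a suspension pooled from several mice, so that animals could not be told apart. The p-values measured only how differences between groups of barcodes varied over the 3 captures of cells.

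The SV is a layered epithelium that generates the endocochlear potential. Its marginal cells face the endolymph, its basal cells line the other side, and its intermediate cells, which are melanocytes of neural crest origin, lie between them and interdigitate with the marginal cells. In pigment cells, tyrosinase (Tyr) carries out the first and rate-limiting steps from tyrosine to dopaquinone, dopachrome tautomerase (Dct) converts dopachrome to DHICA, and tyrosinase-related protein (Tyrp1) acts downstream of both in eumelanin synthesis. Pmel forms the fibrils on which melanin is laid down, and Mlana is a small melanosomal membrane protein that binds Pmel. Slc45a2, Oca2 and Slc24a5 are membrane transporters or channels that set the ion balance and pH of the melanosome, Gpnmb is a glycoprotein related to Pmel, and Gpr143 is the receptor lost in ocular albinism. Transcription of many of these genes in melanocytes is driven by MITF, which binds an E-box core that is extended in pigment gene promoters.

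The promoters of 4 of the genes are shown because they hold that extended core. RefSeq sequence of GRCm38.p6 was at hand for the 250 bases before the start of 6 of the 10 genes, namely Dct, Tyr, Tyrp1, Oca2, Slc24a5 and Gpnmb. The 7 letters TCATGTG or their reverse complement CACATGA, in capitals, were found in 4 of the 6, while 3.25% of 32851 promoters of the same length held them. The windows are chr14:118052247-118052496 on the minus strand for Dct, chr7:87493513-87493762 on the minus strand for Tyr, chr4:80833963-80834212 on the plus strand for Tyrp1 and chr2:125067877-125068126 on the plus strand for Slc24a5. GENCODE places the gene starts of Tyrp1 and Slc24a5 inside their windows. A match describes the letters and is not a measured site.
Dct: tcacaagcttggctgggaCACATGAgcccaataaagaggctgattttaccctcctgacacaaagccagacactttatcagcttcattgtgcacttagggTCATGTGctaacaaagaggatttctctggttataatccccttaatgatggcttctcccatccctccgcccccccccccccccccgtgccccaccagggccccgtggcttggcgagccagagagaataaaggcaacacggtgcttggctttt
Tyr: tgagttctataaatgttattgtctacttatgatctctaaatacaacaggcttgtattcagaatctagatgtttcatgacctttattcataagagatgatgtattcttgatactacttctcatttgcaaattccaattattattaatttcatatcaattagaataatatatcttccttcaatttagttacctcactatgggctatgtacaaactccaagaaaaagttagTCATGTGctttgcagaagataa
Tyrp1: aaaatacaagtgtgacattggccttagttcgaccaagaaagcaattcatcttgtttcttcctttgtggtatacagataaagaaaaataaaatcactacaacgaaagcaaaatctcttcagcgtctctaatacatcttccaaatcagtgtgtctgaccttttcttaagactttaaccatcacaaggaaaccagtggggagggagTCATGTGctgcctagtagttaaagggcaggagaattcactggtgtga
Slc24a5: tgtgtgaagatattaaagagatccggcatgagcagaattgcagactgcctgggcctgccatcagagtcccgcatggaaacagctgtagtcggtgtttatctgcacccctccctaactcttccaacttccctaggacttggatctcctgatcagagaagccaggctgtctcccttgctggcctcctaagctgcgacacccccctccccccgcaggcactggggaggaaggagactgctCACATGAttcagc
The first base of the 7 letters lay 151 bases before the RefSeq start in Dct, with a reverse copy at 232 bases, 22 bases before it in Tyr, 47 bases before it in Tyrp1, and, as the reverse copy, 13 bases before it in Slc24a5. By the GENCODE start, the letters in Tyrp1 lie inside the gene. Of these 4 genes, Dct was the most abundant in the data and Tyrp1 was all but undetected.

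In GENCODE vM21 on mm10, Tyr (chr7:87424771-87493512, minus strand) and Oca2 (chr7:56239760-56536518, plus strand) share chromosome 7. Dct spans chr14:118012790-118052244 on the minus strand, Tyrp1 chr4:80834123-80851719, Pmel chr10:128704195-128720238, Mlana chr19:29697824-29708634 and Slc45a2 chr15:11000721-11029233, all 4 on the plus strand. Slc24a5 spans chr2:125068124-125088677, Gpnmb chr6:49036546-49070929 and Gpr143 chrX:152781921-152808646, also on the plus strand. Pmel overlaps Cdk2 by 837 bases and Dgka by 105 bases, and Slc24a5 overlaps Myef2 by 4050 bases, each on the opposite strand. Dct and Oca2 overlap antisense genes by 1891 and 965 bases. The part of these overlaps in the counts was not tested.

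Barcodes were clustered without the 10 genes and without a wider list of 43 melanosome genes, and clusters were named from other markers. Intermediate cells were named from Kcnj10, Kcnj13, Met, Cd44, Nrp2, Pax3, Bmyc and Ednrb, and were 134 barcodes in capture 1, 441 in capture 2 and 426 in capture 3, with 1474 intermediate nuclei. These 8 markers together made up 5375 to 6238 UMIs per 1000000 UMIs (CPM) in intermediate cells and 5884 in intermediate nuclei, against 1841 to 2712 in marginal cells and 263 in marginal nuclei. The captures held 2811309, 8113494 and 8340882 UMIs (unique molecular identifiers, 1 for each captured transcript) and the nuclei 22332501, and 377, 1314, 1461 and 9723 barcodes were kept. Pairs of libraries shared 0 to 32 barcode sequences. Between 189 and 724 barcodes per capture of cells and 4332 in the nuclei library had almost no Malat1, a nuclear RNA, and are called low-Malat1 barcodes.

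Levels are given as CPM, the UMIs of a gene per 1000000 UMIs of the barcodes concerned. The kit counts transcript ends, so CPM carries no scaling for gene length and genes were ordered on this scale as counted molecules. Intervals of single values are 95% exact Poisson or binomial intervals, which cover counting error only.

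Dct was by far the most abundant of the 10 genes in intermediate cells. Its level was 22477 CPM in capture 1, 19714 in capture 2 and 15358 in capture 3, a mean of 19183 ± 3589 (SD, n = 3). It was found in 134 of 134, 441 of 441 and 425 of 426 intermediate cells, and in 1474 of 1474 intermediate nuclei, where its level was 26149 CPM (25948 to 26350). No interval of a capture reached that of another, so captures differed in Dct by more than counting error.

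Gpnmb and Tyr came next. Gpnmb was at 1695, 1639 and 1424 CPM in the 3 captures (mean 1586 ± 143) and Tyr at 1149, 942 and 1219 CPM (mean 1103 ± 144), with no capture of Tyr above any capture of Gpnmb. Slc45a2 was at 992, 770.0 and 784 CPM (mean 849 ± 125), which overlapped the range of Tyr. Mlana was at 451, 511 and 486 CPM (mean 483 ± 30.3), below every capture of Slc45a2. These 5 genes had a UMI in 84.5% to 100% of the intermediate cells of each capture. Together the 10 genes took 2.68%, 2.36% and 1.93% of all UMIs of intermediate cells and 3.30% in intermediate nuclei.

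Gpr143 and Slc24a5 were far lower. Gpr143 was at 31.0, 28.0 and 28.9 CPM and Slc24a5 at 29.3, 19.2 and 19.8 CPM, and their ranges overlapped. Gpr143 rested on 36, 79 and 76 UMIs and Slc24a5 on 34, 54 and 52 UMIs.

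Tyrp1, Pmel and Oca2 were at or under the detection floor in intermediate cells. Tyrp1 had 0, 0 and 1 UMI in the intermediate cells of the 3 captures, and Pmel and Oca2 had 0 UMIs in each. A count of 0 allows up to 2.59, 1.06 and 1.14 CPM, taken as 3 UMIs, so these levels were not detectable at this depth. In intermediate nuclei Tyrp1 had 1 UMI, Pmel 2 and Oca2 6 of 2496954 UMIs. Thus the enzyme Dct was among the abundant transcripts of these melanocytes, while the related enzyme Tyrp1 and the fibril protein Pmel were not detected beyond single molecules, and all 3 genes were listed in every library.

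**Figure D1:**
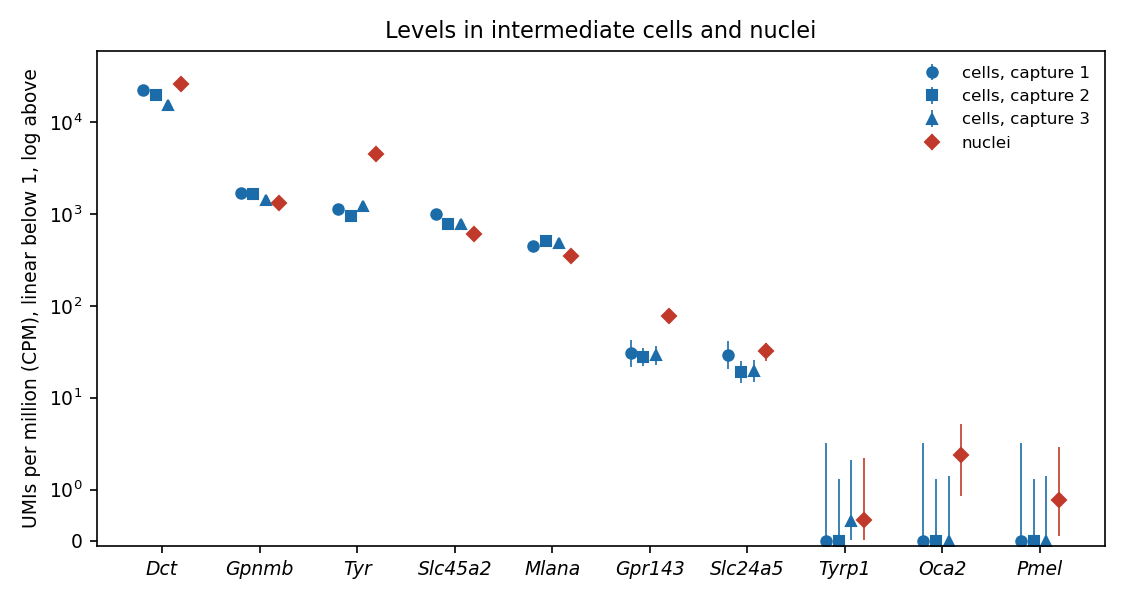
UMIs per 1000000 UMIs (CPM; linear below 1, log above) of the 10 genes in intermediate cells of the 3 captures (blue) and in intermediate nuclei (red), with 95% counting intervals. Dct lies at 15358 CPM or above in all 4 libraries, and Tyrp1, Oca2 and Pmel lie at 0 to 6 UMIs.

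Over all kept barcodes of all types the 3 rare genes remained rare. Tyrp1 had 0, 2, 2 and 3 UMIs in captures 1, 2, 3 and nuclei, Pmel 0, 6, 0 and 9, and Oca2 0, 0, 0 and 24. Of the 6 Pmel UMIs of capture 2, 5 came from 1 barcode of the erythroid cluster, described below. The 24 Oca2 UMIs of the nuclei library lay in 24 barcodes. Of these 8 were marginal, 6 intermediate, 3 spindle/root and 2 fibrocyte nuclei. The others were 3 erythroid barcodes, 1 of Reissner's membrane and 1 without a name.

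Intermediate nuclei differed from intermediate cells gene by gene, as a description with 1 library of nuclei and no test. Tyr was at 4475 CPM in nuclei, 4.06 times the mean of cells, and Gpr143 at 77.7 CPM, 2.65 times the mean. Dct was 1.36 times and Slc24a5, at 32.0 CPM, 1.41 times the mean of cells. Gpnmb (1314 CPM, 0.828 times), Slc45a2 (608 CPM, 0.717 times) and Mlana (345 CPM, 0.715 times) were lower in nuclei. Mitochondrial RNA took a median of 29.8% to 35.2% of the UMIs of intermediate cells and 1.72% in nuclei. With mitochondrial UMIs left out of the totals the ratios were 2.86 for Tyr, 1.87 for Gpr143, 0.967 for Dct, 0.998 for Slc24a5, 0.586 for Gpnmb, 0.507 for Slc45a2 and 0.505 for Mlana. Tyr and Gpr143 thus stood above the cells and Gpnmb, Slc45a2 and Mlana below them on both scales, and Dct and Slc24a5 were above 1 on the first scale alone. Both scales kept Malat1, at 249448 CPM in intermediate nuclei and 47781, 67881 and 47863 CPM in intermediate cells. Ratios without Malat1 were not computed, so the place of Dct and Slc24a5 depends on the totals used. Whether intronic reads were counted is not given in the sources used here, and its part in these ratios was not tested.

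Intermediate cells fell into 2 clusters that differed in mitochondrial RNA, in Malat1 and in depth. The larger, with 86, 260 and 309 cells, had a median of 37.7% to 41.4% mitochondrial UMIs and the smaller, with 48, 181 and 117 cells, 11.2% to 13.5%. Dct was at 15472 ± 2939 CPM in the larger and 33483 ± 5137 CPM in the smaller cluster (SD, n = 3), and Mlana at 374 ± 10.9 and 908 ± 154 CPM. Tyr was at 1079 ± 133 and 1205 ± 212 CPM, ranges that overlapped. With mitochondrial UMIs left out, Dct was at 25805 and 39048 CPM, Mlana at 626 and 1062 CPM, and Tyr at 1807 and 1408 CPM, so that Tyr took the opposite order to Dct and Mlana. Median depth was 7231 to 10609 UMIs in the larger and 3286 to 4346 in the smaller cluster. The median share of Malat1 was 2.15%, 3.84% and 2.83% of UMIs in the larger and 11.5%, 13.3% and 11.4% in the smaller cluster. The clusters were defined by the expression of these same cells, so no test was made.

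Single intermediate cells varied widely in Dct. In capture 2 the lowest cell was at 3711 CPM, the median at 19852 and the highest at 87435, and among intermediate nuclei the values ran from 4978 through a median of 25117 to 88715 CPM. Tyr had a median of 1081, 880 and 1095 CPM over the cells of the 3 captures and 4186 CPM over nuclei. In nuclei the median of Mlana was 0, with UMIs in 499 of 1474.

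UMIs were summed per capture and type, and intermediate cells were compared with the mean of marginal, basal and spindle/root cells in 12 sums. Of the 10 genes, 6 passed the filter on low counts (Dct, Tyr, Mlana, Slc45a2, Gpnmb and Gpr143), and all 6 were higher in intermediate cells (edgeR quasi-likelihood test, Benjamini-Hochberg adjusted p under 0.05), where 19.7% of 6534 genes were higher, 20.5% lower and 40.1% either. A gene that passes this filter through the intermediate cells alone had to differ, as holds for Gpr143, so the count stands as a description. The size of each difference follows.

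Mlana was at 451, 511 and 486 CPM in intermediate cells, at 123, 85.7 and 106 CPM in marginal cells, at 175, 97.7 and 117 CPM in basal cells and at 36.8, 65.9 and 40.3 CPM in spindle/root cells. No capture of another type reached any capture of the intermediate cells. Its log2 fold change was 2.78 ± 0.13 (SE; edgeR adjusted p = 3.2e-21).

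Dct was at 6770, 5184 and 4121 CPM in marginal cells, 8071, 5228 and 4878 in basal cells and 2246, 2619 and 790 in spindle/root cells, with all intermediate captures above them. Its log2 fold change was 2.61 ± 0.15 (edgeR adjusted p = 1.01e-11).

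Tyr was at 478, 317 and 371 CPM in marginal cells, 505, 318 and 438 in basal cells and 98.2, 198 and 56.5 in spindle/root cells, again with no overlap with intermediate cells. Its log2 fold change was 2.30 ± 0.13 (edgeR adjusted p = 1.33e-16).

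Gpnmb differed by 2.06 ± 0.12 on the log2 scale (edgeR adjusted p = 3.05e-18) and Slc45a2 by 1.88 ± 0.12 (edgeR adjusted p = 1.3e-17), with marginal and basal cells at 556 to 829 and at 284 to 567 CPM. Gpr143 had a fitted log2 fold change of 3.30 ± 0.49, which depends on the prior count of the fit, since its spindle/root cells held 0 UMIs in all 3 captures. With DESeq2 the log2 fold change was 2.31. Gpr143 passed the filter on low counts through the intermediate cells alone, so its p-value is no support and is not given. Gpr143 stood at 66.7% ± 2.4 of the intermediate level in marginal cells, on 5, 14 and 8 UMIs, and at 43.8% ± 7.9 in basal cells, on 4, 11 and 6 UMIs (SD, n = 3). Slc24a5 did not pass the filter, and its marginal, basal and spindle/root cells held 0 to 5 UMIs per capture.

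Basal and marginal cells, the layers on both sides of the intermediate cells, were compared in the same fit. Of the 6 genes tested, 1 was higher in basal cells, where 16.6% of all genes were higher, 15.4% lower and 32.0% either. This was Slc45a2, at 567, 363 and 370 CPM in basal and 465, 321 and 284 CPM in marginal cells, with overlapping ranges and a higher value in basal cells in 3 of 3 captures (log2 fold change 0.43 ± 0.15, edgeR adjusted p = 0.0289). The call was lost with DESeq2 (adjusted p = 0.0754), with no TMM scaling (adjusted p = 0.159), with no replicate block (adjusted p = 0.0712), without capture 2 (adjusted p = 0.104) and without capture 3 (adjusted p = 0.165). The other 5 genes did not pass in edgeR, with log2 differences of 0.44 for Mlana (adjusted p = 0.0921), 0.33 for Dct (adjusted p = 0.233), 0.26 for Tyr, 0.20 for Gpnmb and -0.43 for Gpr143.

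The RNA of these genes was found in other types at a sizeable share of the intermediate level. In marginal cells Dct stood at 30.1%, 26.3% and 26.8% of its level in the intermediate cells of the same capture (mean 27.7% ± 2.1), Tyr at 35.3% ± 5.7, Mlana at 21.9% ± 5.2, and Slc45a2 and Gpnmb at 41.6% ± 5.4 and 41.6% ± 6.5 (SD, n = 3). Basal cells stood at 31.4% ± 4.7 for Dct, 37.9% for Tyr, 27.3% ± 10.2 for Mlana, 50.5% ± 5.8 for Slc45a2 and 42.9% for Gpnmb. The same cells held the 8 intermediate markers, none of which is a pigment gene of the 10, at a median of 36.6%, 31.7% and 32.8% of the intermediate level in marginal and 47.6%, 33.5% and 37.6% in basal cells, with all 8 above 0 in each capture. Whether this RNA came from free RNA, attached fragments or the cells themselves was not tested.

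Spindle/root cells held less, at 9.99%, 13.3% and 5.15% for Dct (mean 9.5% ± 4.1), with intermediate markers at a median of 7.36% to 20.0%. Of the 8 markers, Kcnj13 and Pax3 were at 0 in capture 3. These sums held 5, 18 and 16 cells, and with 20 principal components in the clustering the Dct share was 1.41%.

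**Figure D2:**
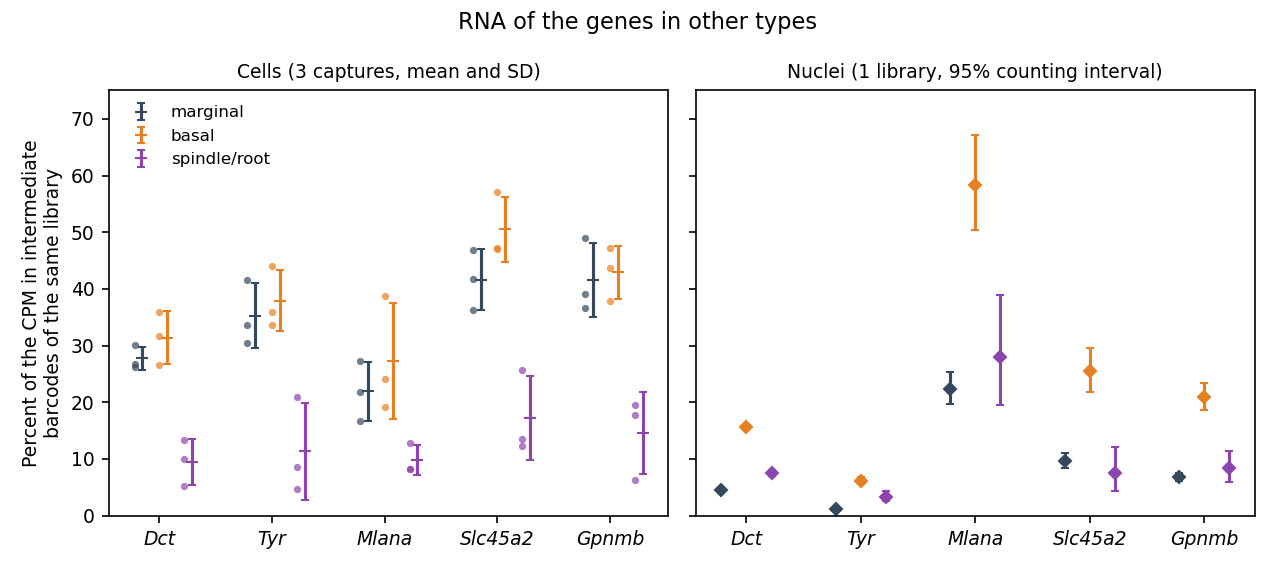
Level of 5 genes in marginal, basal and spindle/root barcodes as a percent of the CPM in intermediate barcodes of the same library, for cells (points, with mean and SD of 3 captures) and nuclei (with 95% counting intervals). Marginal and basal cells lie between 16.8% and 57.1%, and in nuclei Mlana stands above the other genes in all 3 types.

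Marginal and basal nuclei held a smaller share of the intermediate level than marginal and basal cells for Dct, Tyr, Slc45a2 and Gpnmb, but not for Mlana. Marginal nuclei had 1182 CPM of Dct, 4.52% of the level in intermediate nuclei, and 51.5 CPM of Tyr, 1.15%. Basal nuclei stood at 15.6% for Dct and 6.17% for Tyr, and spindle/root nuclei at 7.49% and 3.35%, the first inside the range of spindle/root cells. Mlana stood at 22.4% in marginal, 58.3% in basal and 27.9% in spindle/root nuclei, on 339, 244 and 36 UMIs. The 8 intermediate markers had a median of 4.40% in marginal and 14.6% in basal nuclei, so the share of Dct lay near that of the markers and the share of Mlana far above it.

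A UMI of Dct was present in most barcodes of every main type. In marginal cells 94.1%, 92.8% and 92.5% had at least 1 Dct UMI at median depths of 15087, 11435 and 11272 UMIs, and after each barcode was thinned to 1000 UMIs the shares were 76.5%, 73.9% and 65.0%. Of the 13 and 86 erythroid cells, 76.9% and 68.6% had a Dct UMI, and 7.69% and 11.6% after thinning. Their median depths were 10167 and 10230 UMIs. Marginal nuclei, at a median depth of 1394 UMIs, had a UMI of Dct in 71.2%, and in 38.0% after thinning to 500 UMIs. Erythroid barcodes of the nuclei library, at 5335 UMIs, stood at 83.1% and 21.9%. Of these 461 barcodes, 435 were low in Malat1. The thinned share in marginal barcodes was thus above that in erythroid barcodes of the same libraries. This holds for erythroid barcodes only, and the Dct levels of other blood types follow.

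Blood barcodes carried some of the same RNA, and single barcodes decided several of these values. The 13 erythroid cells of capture 2 had 962 CPM of Dct, but 117 of their 134 Dct UMIs came from 1 barcode with 13604 UMIs, which also held 35 Gpnmb, 8 Mlana, 9 Slc45a2, 7 Tyr and 5 Pmel UMIs and 72 UMIs of the intermediate markers. Without it Dct was at 135 CPM (78.8 to 217), beside 157 CPM (133 to 185) in the 86 erythroid cells of capture 3, and Gpnmb at 31.8 instead of 280 CPM. In the 3 B cells of capture 2, 27 of 28 Dct UMIs came from 1 barcode. In the 461 erythroid barcodes of the nuclei library Dct was at 532 CPM (505 to 561), which is 2.04% of intermediate nuclei. The 207 B-cell barcodes of that library were at 1269 CPM (1163 to 1382), 4.85%, and the 71 neutrophil barcodes at 1056 CPM (909 to 1221). Both lay near the 1182 CPM of marginal nuclei, and the B-cell barcodes were at 1181 CPM without the barcode with the most Dct. The neutrophil barcodes were at 927 CPM (788 to 1084), below marginal nuclei, without the barcode that held 25 of their 183 Dct UMIs. The 28 B cells of capture 3 were at 428 CPM, or 275 CPM without the barcode that held 16 of their 43 Dct UMIs. The 9 macrophages of that capture were at 374 CPM, or 116 CPM without the barcode that held 10 of their 14 UMIs, and the 8 neutrophils at 203 CPM on 6 UMIs. The 5 macrophages of capture 2 were at 436 CPM (209 to 801) on 10 Dct UMIs. Without the barcode that held 3 of these they were at 418 CPM (168 to 861). The 4 macrophages of capture 1 held 1 Dct UMI.

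Low-Malat1 barcodes are droplets whose Malat1 share was under 0.1 of the median share of the 4 main types of the same library, which is under 0.303%, 0.516% and 0.350% of UMIs in the captures and 1.70% in the nuclei library. Those with at least 3 UMIs of the intermediate markers and at least 2 times as many as of the marginal markers were taken as fragments with intermediate RNA. They numbered 119, 344 and 333 in the captures of cells and 613 in the nuclei library, with a median of 49.0%, 57.6% and 64.7% and of 47.0% mitochondrial UMIs. Of them 1, 2, 9 and 13 lay in clusters of blood types.

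Relative to most genes, these fragments had more Mlana and less Tyr than intermediate cells that were not low in Malat1. Of 7 genes tested 1 was higher and 4 were lower, where 18.3% of 7589 genes were higher, 15.8% lower and 34.2% either. Mlana was at 469, 442 and 357 CPM in fragments and at 457, 501 and 483 CPM in cells, so that captures 2 and 3 had a lower CPM of Mlana in fragments and capture 1 a slightly higher one. With mitochondrial UMIs left out of the totals, Mlana was at 888, 1041 and 846 CPM in fragments and at 682, 751 and 773 CPM in cells, higher in fragments in 3 of 3 captures. On this scale the larger intermediate cluster was at 593, 650 and 636 CPM and the smaller at 911, 990 and 1285 CPM. Fragments were thus above the larger cluster in each capture, but below the smaller one in captures 1 and 3. With TMM scaling, which sets the typical gene to no change, its log2 fold change was 0.60 ± 0.11 (edgeR adjusted p = 4.51e-04). With no TMM scaling it was -0.21 (adjusted p = 0.259), where the median of all genes was -0.88, against -0.05 with TMM, and 3.86% of the calls over all genes were higher instead of 53.7%. With the Malat1 limit at 0.2 of the median, Mlana had 0.31.

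Tyr was at 330, 326 and 304 CPM in fragments and at 1166, 944 and 1234 CPM in cells, with no overlap. Its log2 fold change was -0.98 ± 0.12 (edgeR adjusted p = 1.02e-05), and -1.80 with no TMM scaling.

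Dct was at 10756, 7312 and 4671 CPM in fragments and at 22796, 19884 and 15506 CPM in cells. Each capture of fragments lay below each capture of cells, and the log2 fold change was -0.62 ± 0.12 (edgeR adjusted p = 5.72e-04), or -1.43 with no TMM scaling.

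Gpnmb (671, 725 and 411 CPM in fragments, 1706, 1645 and 1443 in cells) had a log2 fold change of -0.65 (edgeR adjusted p = 4.76e-04). Slc45a2 (474, 333 and 257 CPM in fragments, 987, 774 and 788 in cells) had -0.50 (edgeR adjusted p = 0.00237), a call lost without capture 3 (adjusted p = 0.0798). The sparse genes Slc24a5 (-0.73, adjusted p = 0.0896) and Gpr143 (-0.67, adjusted p = 0.125) did not pass in edgeR.

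**Figure D3:**
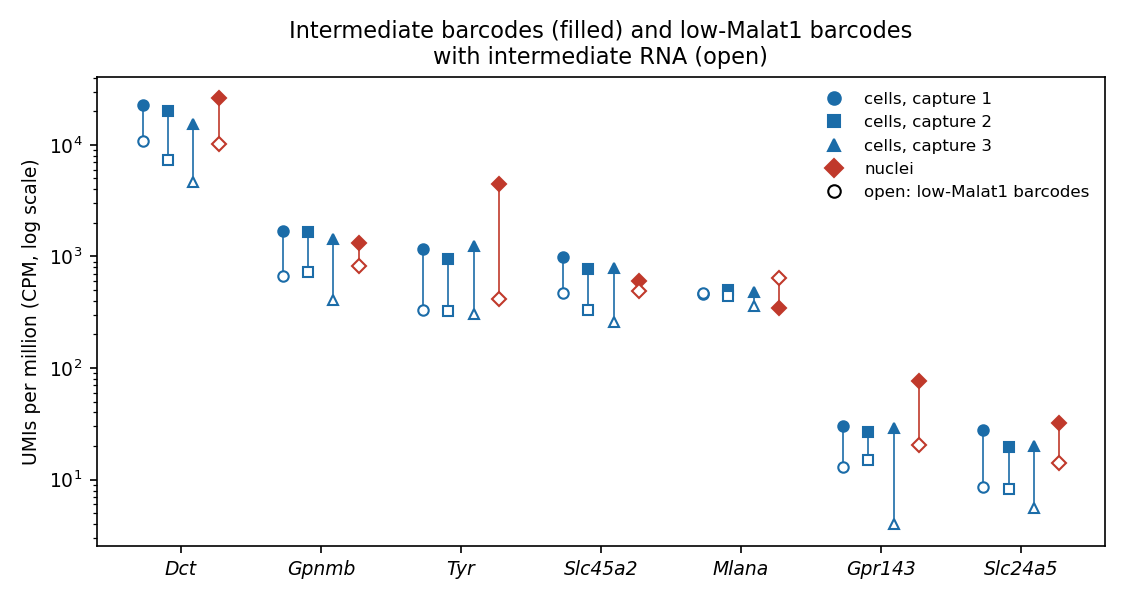
UMIs per 1000000 UMIs (CPM, log scale) of 7 genes in intermediate barcodes that were not low in Malat1 (filled) and in low-Malat1 barcodes with intermediate RNA (open), with a line for each library. The lines of Dct, Gpnmb, Tyr and Slc45a2 run down in all 4 libraries, while those of Mlana are short in cells and run up in the nuclei library. Totals include mitochondrial UMIs. Without them the nuclei line of Slc45a2 would run up, that of Gpnmb would be level, and those of Mlana would run up in all 4 libraries. Malat1, by which the open points were chosen, stays in both totals.

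The nuclei library also had more Mlana and less Tyr in fragments, as a description without a test. Its 613 fragments had 639 CPM of Mlana, 185% of the level in intermediate nuclei, 494 CPM of Slc45a2 (81.2%), 817 CPM of Gpnmb (62.2%) and 10172 CPM of Dct (38.9%). Tyr was at 415 CPM, 9.27% of the level in intermediate nuclei. With mitochondrial UMIs left out of the totals the shares were 302% for Mlana, 132% for Slc45a2, 101% for Gpnmb, 63.4% for Dct and 15.1% for Tyr, so that on this scale Slc45a2 turned from lower to higher and Gpnmb was level. Malat1, by which fragments were chosen, stayed in these totals, at 249448 CPM in intermediate nuclei and 3839 CPM in fragments. Shares without Malat1 were not computed, so the order of Slc45a2 and Gpnmb depends on the totals used. Low-Malat1 barcodes without a name held 62.8% of all Mlana UMIs of that library, beside 33.9% of its UMIs of all genes. Intermediate nuclei held 19.3% of all Mlana UMIs and 82.2% of all Tyr UMIs, beside 13.5% of the UMIs of all genes.

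The ratio of Mlana to Tyr UMIs does not depend on scaling and separated low-Malat1 barcodes from intermediate barcodes in each library. Intermediate cells had 39.3, 54.3 and 39.8 Mlana UMIs per 100 Tyr UMIs (mean 44.5 ± 8.52). Fragments with intermediate RNA had 142, 136 and 118 (mean 132 ± 12.7), so each capture of fragments was above each capture of cells. Fragments with marginal RNA stood at 275, 142 and 171, the first on 11 Mlana and 4 Tyr UMIs, and other low-Malat1 barcodes at 139, 150 and 179.

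Marginal cells had 25.7 to 28.6 (mean 27.1 ± 1.45) Mlana UMIs per 100 Tyr UMIs and basal cells 34.6, 30.8 and 26.7. All were below the intermediate cells of each capture, which pool 2 clusters. The larger held 340, 796 and 815 Mlana and 1024, 1926 and 2642 Tyr UMIs in captures 1, 2 and 3. The smaller held 183, 646 and 463 Mlana and 308, 730 and 566 Tyr UMIs, a higher ratio in each capture. Marginal cells of each capture and basal cells of captures 2 and 3 were also below the larger cluster. Basal cells of capture 1 were not, so their place depended on the clusters pooled. A cluster with both marginal and intermediate markers had 18.1, 26.3 and 17.1. It held 4644, 4635 and 4073 CPM of the intermediate markers and 1472, 1719 and 1710 CPM of the marginal markers. Spindle/root cells had 37.5, 33.3 and 71.4, on 3, 12 and 5 Mlana UMIs, and were not set apart from intermediate cells. In whole cells the ratio of marginal and basal cells was nearer to that of intermediate cells than to that of fragments. The source of this RNA was not tested. The ratio of erythroid cells is given below.

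In the nuclei library, intermediate nuclei had 7.71 Mlana UMIs per 100 Tyr UMIs (7.19 to 8.27). Marginal nuclei had 150.0 (126 to 178), basal nuclei 72.8 (61.5 to 86.2), spindle/root nuclei 64.3 (41.1 to 99.5) and erythroid barcodes 80.4 (58.9 to 109). Fragments with intermediate RNA, with marginal RNA and with other RNA had 154 (137 to 173), 171 (152 to 193) and 185 (169 to 203). The interval of marginal nuclei overlapped that of fragments and lay far above that of intermediate nuclei. Among basal nuclei the ratio was 101 with 20 principal components and 168 (167.5) with no doublets removed, and among erythroid barcodes it was 130 at a resolution of 0.4. The erythroid cells of capture 2 had 9 UMIs of each gene, of which 1 barcode held 8 of Mlana and 7 of Tyr. Those of capture 3 had 33 Mlana and 15 Tyr UMIs, or 220.0 per 100 (116 to 436). The source of the RNA in these barcodes was not tested.

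**Figure D4:**
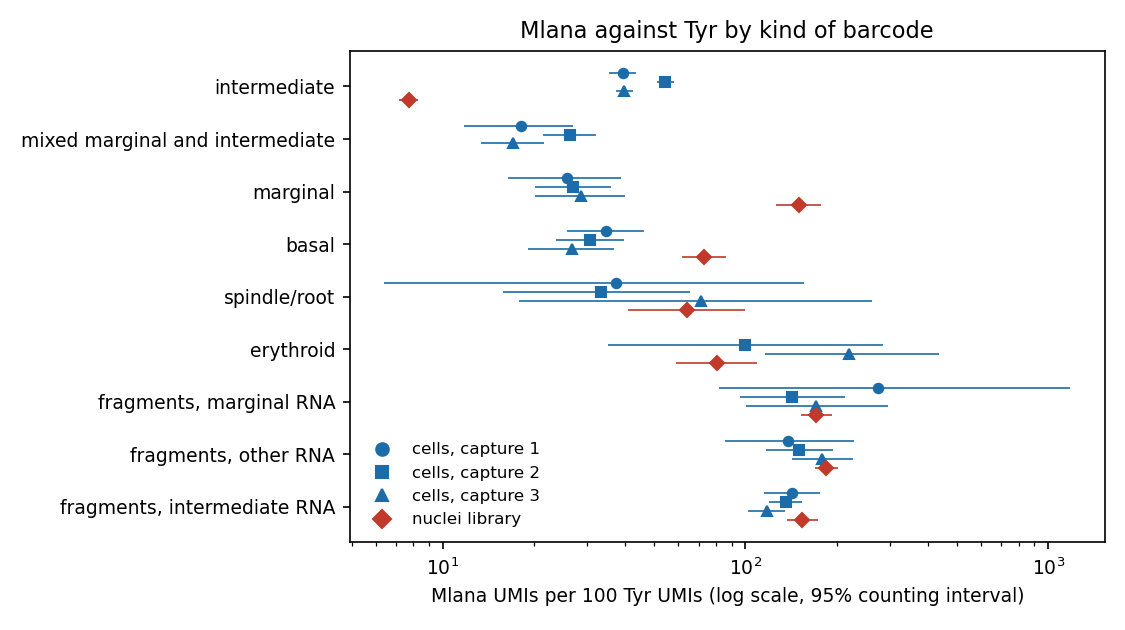
Mlana UMIs per 100 Tyr UMIs (log scale, with 95% counting intervals) by kind of barcode in the 3 captures of cells (blue) and the nuclei library (red), where the UMIs of both genes together were at least 10. Fragments lie above 100 in all 4 libraries, intermediate nuclei lie at 7.71, and the marginal, basal and spindle/root nuclei lie between 64.3 and 150.0.

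The wider list held 43 genes that build, move and acidify melanosomes and related organelles or set pigment type. Of 28 tested, 12 were higher and 2 lower in intermediate cells than in the mean of the other 3 types, where 19.7% of all genes were higher and 20.5% lower, with 14 of the list not past the threshold and a median log2 fold change of 0.23 against -0.01 over all genes. All 5 tested genes of melanosome transport were higher, against 4 of 15 genes of organelle biogenesis. Of channels and transporters 2 of 5 were higher and 1 lower, and of pigment-switching genes 1 of 3 was higher and 1 lower. Mlph, 1 of the 5 transport genes, passed the filter on low counts through the intermediate cells alone. Mcoln3, the channel gene that was lower, passed it through marginal and spindle/root cells, where it was high. The place of Mlph and of Mcoln3 in these counts is therefore a description. The groups were not tested against each other. A gene above the mean of the 3 types was not above each of them. Sytl2, a Rab27 effector counted among the transport genes, was at 143, 134 and 141 CPM in intermediate cells and at 279, 177 and 258 CPM in marginal cells, and at 267 and 614 CPM in the nuclei of these types. Hps4 had a mean of 50.4 CPM in intermediate and 77.3 CPM in marginal cells, and Rab38 one of 40.6 CPM in intermediate and 45.2 CPM in spindle/root cells. These 3 genes were chosen for mention after their values were seen. Mitf, the transcription factor named above, was the pigment-switching gene that was higher (log2 fold change 1.63 ± 0.15, edgeR adjusted p = 2.46e-11) and was chosen for mention after its value was seen.

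The 3 largest differences were all in transport genes. Rab27a, the GTPase that tethers mature melanosomes, was at 85.4, 105 and 102 CPM in intermediate cells and 97.5 ± 10.6 on average, against 32.5 ± 16.1 in marginal, 43.9 ± 10.6 in basal and 5.49 ± 9.51 in spindle/root cells (log2 fold change 2.53 ± 0.21, edgeR adjusted p = 2.38e-13). Its effector Mlph, melanophilin, was at 50.9, 41.1 and 54.7 CPM in intermediate cells. Marginal cells were at 12.7 to 23.1 CPM and basal cells at 13.4 to 14.7 CPM. The log2 fold change of Mlph was 2.06 ± 0.23, with no p-value given, since the gene passed the filter through intermediate cells alone. Myrip, another Rab27a effector, had a log2 fold change of 1.70 ± 0.26 (edgeR adjusted p = 6.39e-07). Its mean was 39.6 CPM in intermediate, 25.3 in marginal and 28.0 CPM in basal cells. In spindle/root cells it was 4.52 CPM, on 2 UMIs, so the difference was widest against that type. Spindle/root cells of capture 1 held 0 UMIs of each of the 3 genes.

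Only 2 genes of the list were lower. Mcoln3, a cation channel of endosomes and lysosomes, was at 25.9, 22.7 and 22.8 CPM in intermediate cells and at 127, 144 and 187 CPM in marginal cells. Spindle/root cells were at 110 to 135 CPM. Basal cells were at 10.8, 22.0 and 11.7 CPM, below the intermediate cells of the same capture. The log2 fold change of Mcoln3 was -1.23 ± 0.19. The gene passed the filter on low counts through marginal and spindle/root cells, where it was high, so no p-value is given. Mgrn1, a ubiquitin ligase of the pigment-type switch, was at 51.7, 42.6 and 38.7 CPM in intermediate and 127, 116 and 113 CPM in marginal cells (-0.66 ± 0.15, edgeR adjusted p = 2.28e-04). Chosen after their values were seen, Mc1r, the melanocortin receptor, had 1 UMI and Slc7a11, the cystine transporter of pheomelanin synthesis, 2 UMIs in all intermediate cells, and Asip was not in the gene lists under that symbol.

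**Figure D5:**
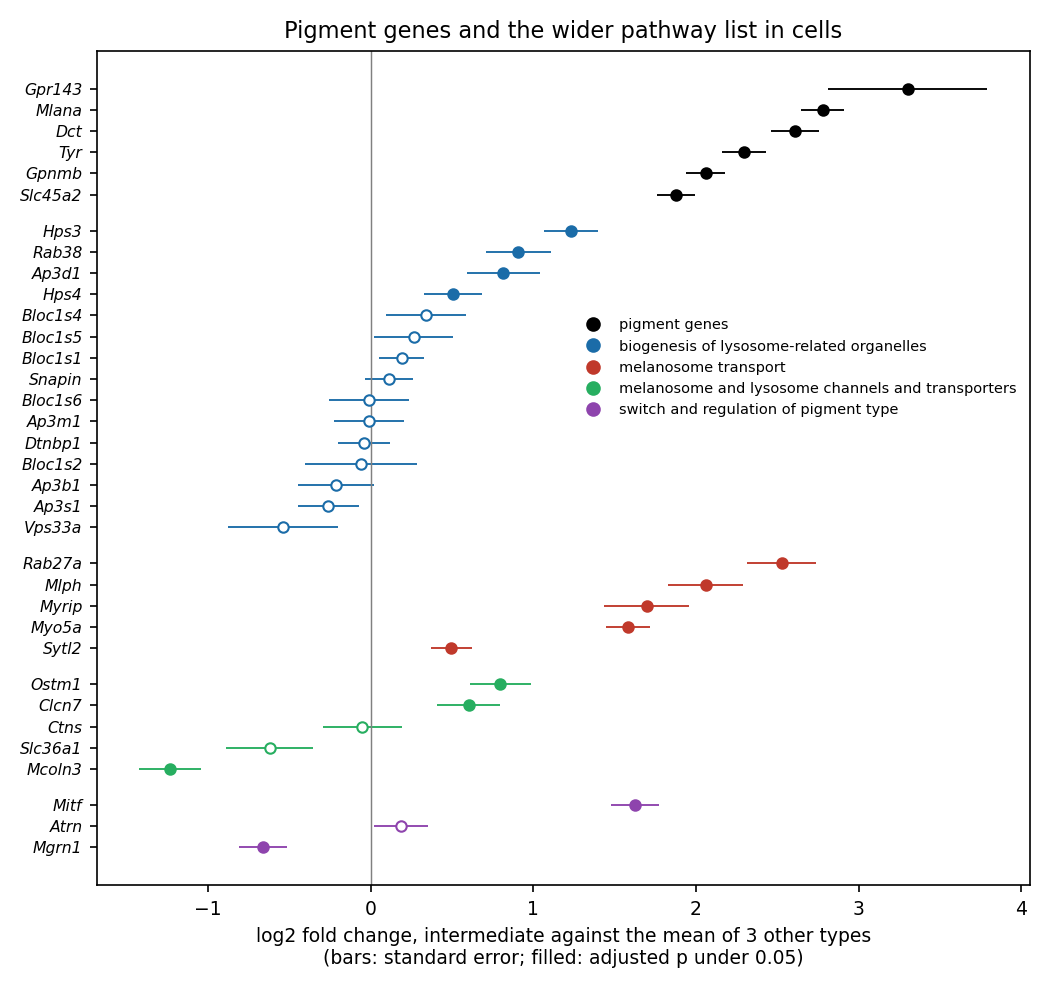
Log2 fold change of intermediate cells against the mean of marginal, basal and spindle/root cells, with standard errors, for the 6 tested pigment genes (black) and the 28 tested genes of the wider list by group; filled points have an edgeR adjusted p under 0.05. All 5 transport genes (red) lie to the right of 0, most genes of organelle biogenesis (blue) lie near 0, and Mcoln3 and Mgrn1 lie to the left.

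In fragments, 35 genes of the list were tested against intermediate cells, and 4 were higher and 10 lower, where 18.3% of all genes were higher and 15.8% lower. Among the genes past the threshold, the largest falls were Lyst, the lysosomal trafficking regulator (log2 fold change -1.58 ± 0.55), Hps4 (-1.51 ± 0.24, edgeR adjusted p = 1.50e-04) and the copper pump Atp7a (-1.36 ± 0.38). Lyst was at 11.2, 9.22 and 12.2 CPM and Atp7a at 26.7, 22.0 and 23.2 CPM in intermediate cells. Genes this sparse can pass the filter on low counts through the intermediate cells alone. No p-value is therefore given for Lyst and Atp7a, and the count of 10 lower genes stands as a description. The largest rises were Mgrn1 (0.72 ± 0.20, edgeR adjusted p = 0.0112), Ap3s1 (0.67 ± 0.22, edgeR adjusted p = 0.0264) and Bloc1s1 (0.58 ± 0.15, edgeR adjusted p = 0.00787), subunits of adaptor and biogenesis complexes in the last 2. Between basal and marginal cells, 2 of 28 genes were higher and 6 lower, where 16.6% of all genes were higher and 15.4% lower. The 2 higher were Ctns (log2 fold change 1.54 ± 0.26) and Ap3s1 (1.49 ± 0.28), and the 3 largest falls were Mcoln3 (-3.06 ± 0.25), Hps4 (-1.29 ± 0.27) and Sytl2 (-1.23 ± 0.17).

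Outside the lists, the genes whose pattern over the 12 sums was most like the mean of the 6 tested pigment genes were Nrp2 (r = 0.994), Dkk3 (0.992), Hpse (0.990), Ednrb (0.986) and Sepp1 (0.985), among 6528 genes. These are Pearson correlations of log2(CPM + 1) over sums that share libraries and a type that is high in all of them, and Nrp2 and Ednrb are among the markers that named the type. Dkk3 was at 1089 ± 70.6 CPM in intermediate, 450 ± 65.5 in marginal and 525 ± 148 CPM in basal cells, and at 582, 52.9 and 180 CPM in nuclei of these types. Of the 6 pigment genes, Slc45a2, Tyr and Dct had an r of 0.990, 0.990 and 0.986 with the mean, and Mlana and Gpr143 the lowest, 0.951 and 0.903.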

How the data were processed

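Per the labels and the methods, the authors captured cells and nuclei with the 10x Genomics Chromium 3' kit, aligned reads to mm10 and deposited raw counts of UMIs per gene and barcode, made with Cell Ranger 2.0.0 per the processing notes. Whether intronic reads were counted is not given in the sources used here. The 10 genes, gene lists and tests were chosen with earlier results of these data known. All 10 genes were named. Of the wider list, up to 3 genes past the threshold with the largest differences in each direction were named, besides genes said to be chosen after their values were seen, and of other genes the 5 with the highest correlation.

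Barcodes with under 200 genes, and doublets by Scrublet (scanpy 1.11.5; 0.8% per 1000 barcodes), were removed, which left 377, 1314, 1461 and 9723. Doublet removal took 1, 15, 20 and 978 barcodes. Clustering used Seurat 5.3.0 (R 4.3.3; 2000 variable genes; 47 principal components for cells and 43 for nuclei; resolution 0.8), and clusters were named from 88 markers of 15 classes. UMIs were summed per capture and type with at least 5 cells and fitted in edgeR 4.0.16 (TMM, filterByExpr, robust quasi-likelihood, capture as block, Benjamini-Hochberg). A run on simulated counts had few changed genes and no capture effect, unlike these data, so it does not vouch for the calls. Sums of a capture come from 1 suspension, which pairs them; over 172 genes the residuals of 18 pairs had an r of -0.04 to 0.630, over 0.1 in 16. Nuclei were 1 library, without a test. Intervals used scipy 1.17.1. Alternatives were DESeq2 1.42.0, no TMM, no low-count filter, no block, each capture left out, doublets kept, resolutions 0.4 and 1.2, 20 components, 10 cells per sum, at most 50% mitochondrial UMIs, listed genes allowed in clustering, and Malat1 limits of 0.05 and 0.2. Added after the data were seen were the mitochondrial genes left out of the tests, blood without 1 barcode, and the ratio under each clustering.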

Additional observations from a re-analysis of the deposited data

How the results depend on the processing

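The 6 pigment genes higher in intermediate cells were higher under each alternative that was run. For Gpr143 this is a description only, since it passed the filter on low counts through the intermediate cells alone. At a resolution of 0.4 no marginal or spindle/root cells were named, and the comparisons between types were not run. Over all genes, 719 were higher and 2418 lower in intermediate cells with no TMM scaling, which moved the median log2 fold change from -0.01 to -0.32 and the share of calls that were higher from 49.0% to 22.9%, and 2010 were higher with no filter on low counts. Between basal and marginal cells the count of pigment genes higher was 0 with DESeq2, with no TMM scaling (where the share of calls over all genes that were higher was 39.7% instead of 51.9%) and with no replicate block, 2 with 20 principal components, and 0 to 1 with a capture left out. Fragments had 852 genes higher and 431 lower with DESeq2 (66.4% of calls higher), and 195 and 4851 with no TMM scaling, where 0 pigment genes were higher and Mlana turned to -0.21. Leaving out a capture gave 913 to 1456 genes higher and 707 to 1052 lower, the lowest without capture 3. Without the replicate block Slc45a2 lost its call between basal and marginal cells (0.44, adjusted p = 0.0712) and the 5 calls of pigment genes in fragments remained. The Dct share of the intermediate level was 24.7% in marginal cells with mitochondrial UMIs left out, and 1.41% in spindle/root cells with 20 principal components. In nuclei it was 6.27% in marginal, 13.2% in basal, 11.6% in spindle/root and 2.82% in erythroid barcodes with doublets kept, 14.9% in basal and 2.18% in erythroid barcodes with 20 principal components, and 17.2% and 1.93% with mitochondrial UMIs left out. Levels in intermediate nuclei were 24878 CPM for Dct and 4135 for Tyr with doublets kept, and 28332, 4849 and 374 CPM for Dct, Tyr and Mlana with mitochondrial UMIs left out. Causes of these changes were not tested. Depth limits Gpr143, Slc24a5 and the 3 genes at the floor.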
